A study of Sus scrofa with 8 samples.

Results

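Salt and water cross the nasal lining through a small set of channels, pumps and transporters, and 10 genes of this kind were followed in pig olfactory epithelium (OE). They were chosen by name: FOXI1, ASCL3, CFTR and ATP6V1B1, which mark the ionocyte in human and mouse airway; SCNN1A, SCNN1B and SCNN1G, the 3 subunits of the epithelial sodium channel ENaC; SLC12A2, the sodium-potassium-chloride cotransporter NKCC1; and the water channels AQP3 and AQP4. Of the 10 names, 9 were paired with an Ensembl pig gene identifier among the 22516 genes quantified, and all 9 had reads and were tested. ASCL3, a transcription factor of ionocytes and salivary ducts, matched no identifier and is not analysed here.

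RNA-seq was made from the OE of Landrace × Rongchang crossbred sows aged 8 months and in estrus. In the androstenone treatment group, 2 sows had Boarmate, a boar pheromone spray containing androstenone, sprayed into the nasal cavity and tissue was taken 30 min later; in the control group, 2 sows received no solution. The left and right OE of each sow gave a library each, so each group holds 4 libraries. The labels do not say which libraries share a sow, and androstenone cannot be told apart from the rest of the spray or from the act of spraying.

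Airway ionocytes are rare epithelial cells that depend on the transcription factor FOXI1, carry much of the CFTR of the surface epithelium and are rich in the V-ATPase proton pump. In the wider epithelium, ENaC takes sodium up from the surface fluid, CFTR lets chloride and bicarbonate out, and NKCC1 loads chloride into secreting cells from below. Aquaporins let water follow, AQP3 in the basal and lateral membranes of many epithelia and AQP4 in respiratory epithelium, glia and other tissues.

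Estimated count totals and tissue makeup differed beyond the treatment. Control 1 held 4178330 estimated counts and the other 7 libraries held 81580146 to 100685566. The paper lists a number of sequenced reads for control 1 that lies within the range of the other 7. The low total is thus one of the deposited counts, and its cause was not tested. Control 4 had 48400 TPM (expression scaled by transcript length and library total) summed over 9 osteoblast and cartilage markers and 7360 TPM over 7 osteoclast markers, against at most 4120 and 904 TPM elsewhere. Its 10 genes of most counts held 29.4% of its counts, against 6.57 to 9.02% elsewhere, which lowers the TPM of its other genes. The TPM values given here are not corrected for this. Of the markers of mature olfactory neurons, CNGA2 stood at 0.28 to 5.01 TPM, GNG13 at 0.49 TPM or less and RTP2 at 0 in all 8 libraries; the 11 matched markers summed to 82.1 to 219 TPM, most of it from STOML3 and ANO2. In contrast, FOXJ1, which drives motile ciliogenesis, stood at 73.2 to 531 TPM. The tissue labelled OE therefore held little RNA of CNGA2, GNG13 and RTP2, while ADCY3, another marker of the list, stood at 6.25 to 15.0 TPM. Within the androstenone group, libraries 1 and 2 were close to each other, and so were libraries 3 and 4: the chi-square per degree of freedom between their counts was 112 and 117.4, against 737.7 to 1119 for the other pairs. Whether these pairs are sows was not tested, and no test uses them. In such bulk tissue, fewer cells of a type and less RNA per cell cannot be told apart.

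No gene of the set met the study's cutoff for differentially expressed genes (DEGs), an unadjusted p below 0.05 together with a log2 fold change of 1 or more in either direction. By edgeR's quasi-likelihood test over 21318 genes, the count was 0 of 9 against a background of 1368 genes, or 6.42%. The paper names edgeR but not which of its tests, and reports more DEGs than this at the same cutoff. None of the 9 had an unadjusted p below 0.05 at any fold change. None passed a Benjamini-Hochberg adjusted p of 0.05, and neither did any of all genes tested (0%); edgeR's likelihood ratio test, its exact test, DESeq2 and limma voom also passed 0 of the 9, while over all genes, at any fold change, they passed 200, 157, 670 and 0. The 4 androstenone TPM values overlapped the 4 control values for all 9 genes, where 5.39% of all genes did not overlap. The fitted change was above 0 for 7 genes and below 0 for ATP6V1B1 and AQP4, with a median log2 fold change of 0.45 beside -0.02 over all genes.

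**Figure D1:**
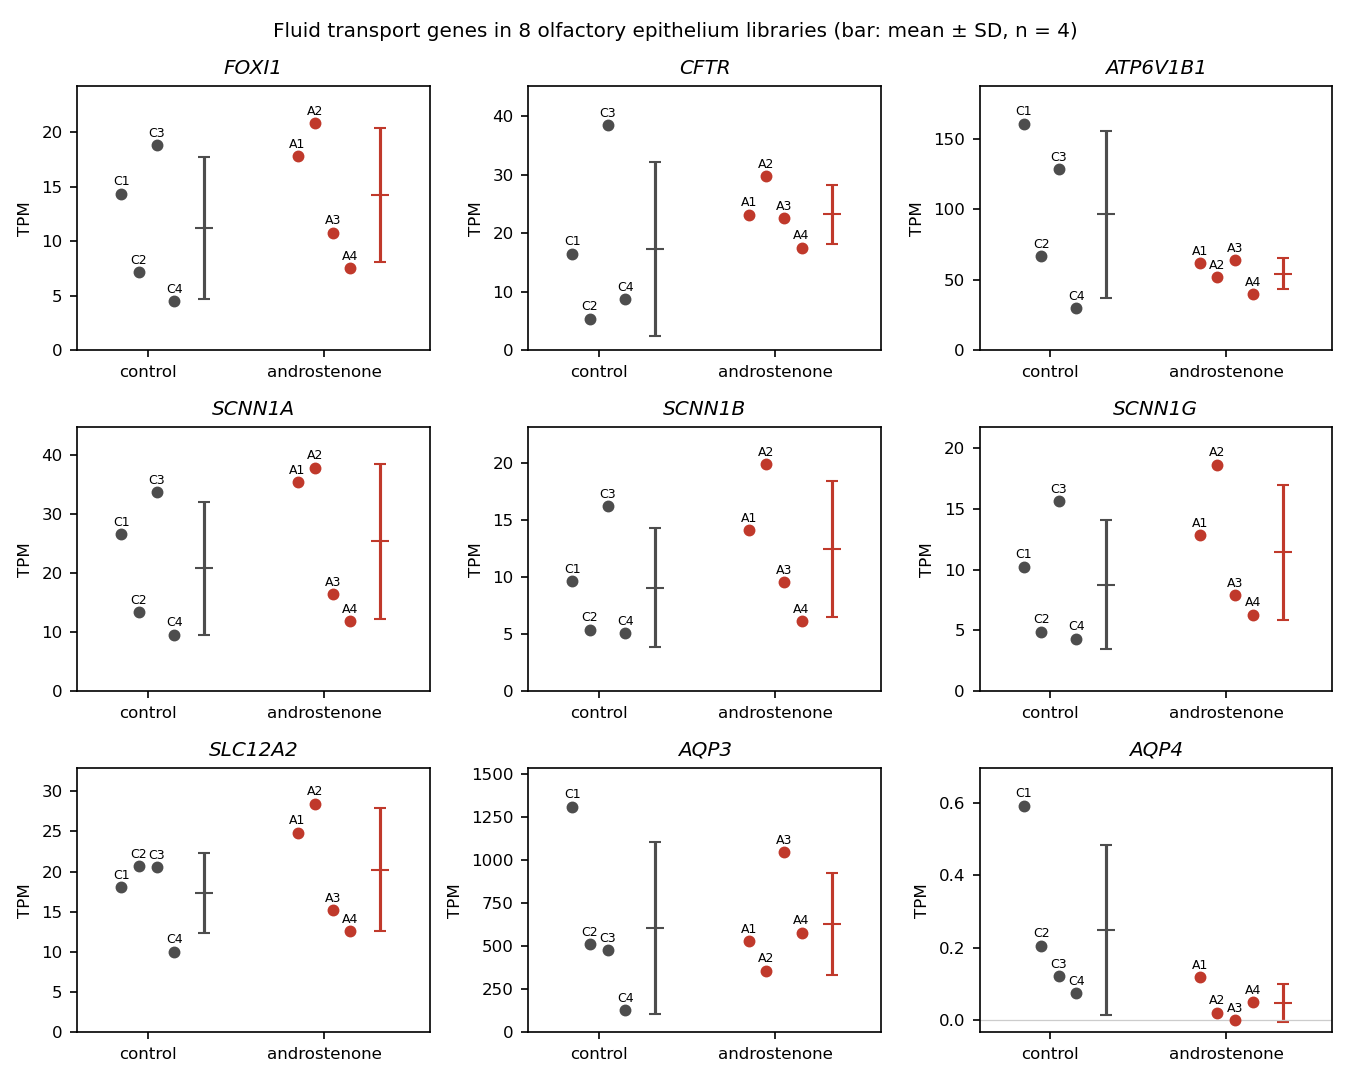
TPM of the 9 genes in each library, on linear axes, with 1 point per library (C1 to C4 control, A1 to A4 androstenone) and the group mean ± SD (n = 4) beside the points. In every panel the red androstenone points fall at least partly within the span of the grey control points, and AQP3 reaches 1310 TPM while AQP4 stays at or below 0.59 TPM.

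**Figure D2:**
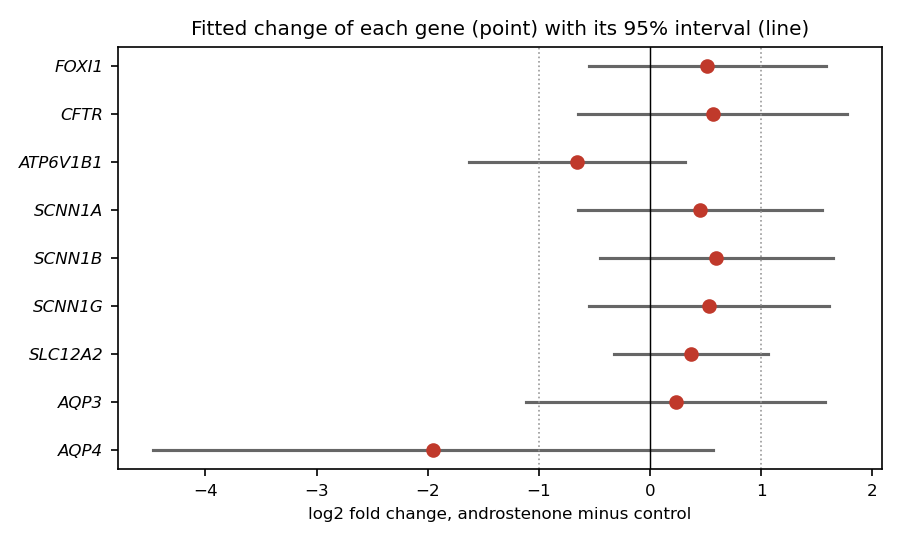
Log2 fold change of androstenone against control from edgeR's quasi-likelihood fit (point) with its 95% interval (line), with dotted lines at -1 and 1. All 9 intervals cross 0, and that of AQP4 is the widest, from -4.47 to 0.56.

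Levels between genes were compared in TPM, which corrects for transcript length. AQP3 stood first with a mean of 618 TPM over the 8 libraries, at the 99.1 percentile of genes by mean TPM. ATP6V1B1 followed with 75.5, then SCNN1A with 23.1, CFTR with 20.3, SLC12A2 with 18.8, FOXI1 with 12.7, SCNN1B with 10.8, SCNN1G with 10.1 and AQP4 with 0.15 TPM. Only the step from AQP3 to ATP6V1B1 and the step from SCNN1G to AQP4 were larger than the SDs of both genes added together. The order within libraries was steadier than the SDs: ATP6V1B1 exceeded SCNN1A in 8 of 8 libraries and SLC12A2 exceeded FOXI1 in 8 of 8, while CFTR and SLC12A2 changed places, CFTR being higher in 4.

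FOXI1, the transcription factor on which the ionocyte fate depends, lies on chromosome 16 at 53835350 to 53839185 (Sscrofa11.1). Its TPM was 14.4, 7.18, 18.8 and 4.50 in control 1 to 4, and 17.8, 20.8, 10.8 and 7.54 in androstenone 1 to 4. Androstenone 2 and control 3 were highest and control 4 was lowest, so each group held both high and low libraries. The mean was 11.2 ± 6.54 TPM in control and 14.2 ± 6.12 in androstenone (SD, n = 4), and the log2 fold change of 0.52 (SE 0.47, edgeR unadjusted p = 0.3, adjusted p = 0.669) lay within the spread between libraries. Its interval ran from -0.55 to 1.58, so neither no change nor a change past the cutoff of 1 is outside it.

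CFTR, the chloride and bicarbonate channel mutated in cystic fibrosis, lies on chromosome 18 at 28627717 to 28818209. The control libraries held 16.5, 5.44, 38.5 and 8.76 TPM and the androstenone libraries 23.2, 29.8, 22.5 and 17.5 TPM. The control values thus ranged 7.08-fold and enclosed all 4 androstenone values, with control 3 the highest of the 8 libraries and control 2 the lowest. The group means were 17.3 ± 14.9 and 23.2 ± 5.02 TPM (SD, n = 4), with a log2 fold change of 0.57 (SE 0.53, edgeR unadjusted p = 0.314, adjusted p = 0.679). Control 3 decided this value: without it, the log2 fold change was 1.29 with an unadjusted p of 0.0105, which met the cutoff. CFTR per FOXI1, a TPM ratio chosen after the values were seen and not tested, was 0.76 to 2.33 over the 8 libraries, lowest in control 2, and the groups overlapped.

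ATP6V1B1, on chromosome 3 at 71560102 to 71591885, encodes the B1 subunit of the V-ATPase, the form used by acid-secreting cells such as ionocytes and intercalated cells of the kidney. It was the ionocyte marker of highest level, at 161, 66.9, 129 and 29.8 TPM in control and 62.1, 52.0, 63.9 and 39.7 TPM in androstenone. Control 1 and control 3 stood above all other libraries, control 2 lay only just above androstenone 3, and control 4 was the lowest of all 8. The means of 96.6 ± 59.2 and 54.4 ± 11.11 TPM (SD, n = 4) gave a log2 fold change of -0.65 (SE 0.43, edgeR unadjusted p = 0.161, adjusted p = 0.56). Without control 4 the unadjusted p was 0.0239 at a log2 fold change of -0.93, still short of the fold required.

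The B2 subunit, ATP6V1B2, is the broadly expressed counterpart of ATP6V1B1 and is abundant in osteoclasts. The ratio of ATP6V1B1 to ATP6V1B2 TPM was 3.99, 1.94, 1.89 and 0.18 in control and 1.20, 0.92, 1.40 and 0.87 in androstenone. Controls 1 to 3 lay above the 4 androstenone libraries and control 4 below them. Control 4 was also where ATP6V1B2 reached 162 TPM, against 34.5 to 68.1 TPM elsewhere, and where the osteoclast markers were highest; the part of osteoclast RNA in this ratio was not tested. The ratio of ATP6V1B1 to FOXI1, also chosen after the values were seen and given with no test, was 11.2, 9.32, 6.86 and 6.63 in control and 3.49, 2.50, 5.92 and 5.27 in androstenone, so here the groups did not overlap. No other ratio computed here separated the groups, and the groups overlapped for ATP6V1B1 and for FOXI1 alone.

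**Figure D3:**
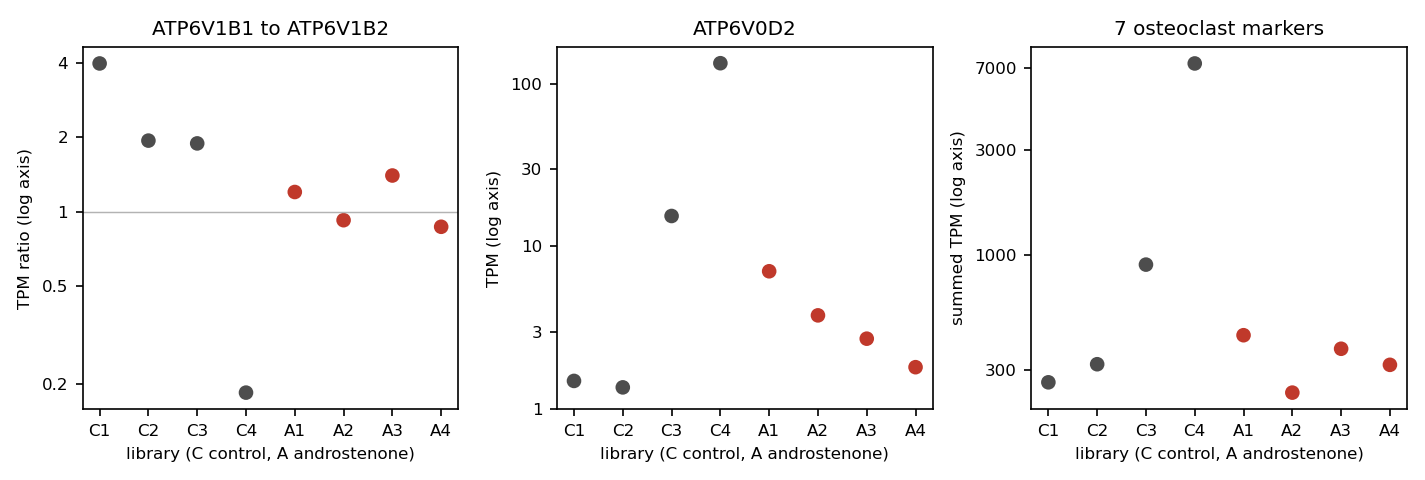
Per library (C control, A androstenone), the TPM ratio of ATP6V1B1 to ATP6V1B2, the TPM of ATP6V0D2 and the summed TPM of 7 osteoclast markers, each on a log axis. Control 4 has the lowest ratio (0.18) together with the highest ATP6V0D2 (134 TPM) and osteoclast marker sum (7360 TPM).

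Most of the other genes known from ionocytes did not meet the cutoff, as was true of all genes. Of 18 listed, 16 were tested, 7 with a fitted change above 0 and 9 below, with a median log2 fold change of -0.06. By the unadjusted cutoff 1 was called, 6.25% beside 6.42% of all genes, and 0 met the adjusted one. By mean TPM the leading members were ATP6V1C2, a V-ATPase subunit found in epithelia, at 20 to 124 TPM, HEPACAM2, a cell adhesion molecule, at 8.29 to 52.9 TPM, and ATP6V0D2. The gene that met the cutoff was ATP6V0D2, a V-ATPase subunit that osteoclasts also make in quantity. It stood at 1.49, 1.36, 15.4 and 134 TPM in control and 7.04, 3.77, 2.71 and 1.81 TPM in androstenone, and the log2 fold change was -3.42 (SE 1.46, edgeR unadjusted p = 0.0458, adjusted p = 0.437). A single library, control 4, carried it: without control 4 the log2 fold change was -0.51 with unadjusted p = 0.593. The cutoff was also missed without any 1 of the 4 androstenone libraries, with p from 0.0558 to 0.0999. SLC26A4, an anion exchanger known from inner ear ionocytes, was at 0.37 to 0.68 TPM in control and 0.21 to 0.31 TPM in androstenone. It was the 1 gene of the 16 whose groups did not overlap, where 5.39% of all genes did not. Its log2 fold change of -0.96 (edgeR unadjusted p = 0.0208) was short of the fold required, and it was chosen for naming after its values were seen.

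Of 24 other V-ATPase genes listed, some of them ionocyte genes as well, 21 were tested. ATP6V0D2 was again the 1 that met the cutoff, 4.76% beside 6.42% of all genes. The median log2 fold change of the 21 was -0.19, with 7 above 0 and 14 below. The most abundant were ATP6V1G1, the G1 subunit, at 155 to 402 TPM, ATP6AP2, an accessory protein, at 111 to 294 TPM, and ATP6V0B, a subunit of the membrane ring, at 97.0 to 226 TPM. ATP6V0B and ATP6AP2 were highest in control 4, as ATP6V1B2 was, whereas ATP6V1B1 was lowest there.

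SCNN1A, the alpha subunit of ENaC, lies on chromosome 5 at 64287529 to 64312917. It held 26.6, 13.4, 33.7 and 9.59 TPM in control and 35.3, 37.8, 16.4 and 11.9 TPM in androstenone. Androstenone 1, androstenone 2 and control 3 were the 3 highest libraries and control 4 the lowest, so the groups overlapped nearly throughout. The log2 fold change was 0.45 (SE 0.48, edgeR unadjusted p = 0.376, adjusted p = 0.707), between means of 20.8 ± 11.2 and 25.4 ± 13.1 TPM (SD, n = 4).

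SCNN1B and SCNN1G, the beta and gamma subunits, are neighbours on chromosome 3, at 22832259 to 22902592 and 22977940 to 23013384, with 75347 bases and no annotated gene between them. SCNN1B stood at 9.68, 5.43, 16.2 and 5.10 TPM in control and 14.2, 19.9, 9.61 and 6.15 TPM in androstenone. SCNN1G stood at 10.2, 4.89, 15.6 and 4.33 TPM in control and 12.8, 18.6, 7.89 and 6.30 TPM in androstenone. Both were highest in androstenone 2 and control 3 and lowest in control 4, and SCNN1A shared the first and the last of these. The log2 fold change was 0.60 for SCNN1B (SE 0.46, edgeR unadjusted p = 0.227, adjusted p = 0.615) and 0.53 for SCNN1G (SE 0.47, edgeR unadjusted p = 0.29, adjusted p = 0.66). Without control 3, SCNN1B had a log2 fold change of 1.02 with an unadjusted p of 0.0481 and so met the cutoff, where SCNN1G did not.

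The proportions of the ENaC subunits varied far less than their levels. SCNN1B to SCNN1G was 0.95 to 1.22 in TPM over the 8 libraries, near parity, although each gene ranged about as widely as its partner, 3.90-fold and 4.31-fold. SCNN1A was 1.71 to 2.74 times SCNN1B and 1.88 to 2.76 times SCNN1G. SCNN1A to FOXI1, a ratio chosen after the values were seen and not tested, was 1.52 to 2.13. In none of these ratios did the groups separate.

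Genes that act on ENaC included 2 that met the unadjusted cutoff, both higher in androstenone. Of 16 listed, 15 were tested, 14 with a fitted change above 0, a median log2 fold change of 0.29 and 0 past the adjusted p. The 2 calls were 13.3% of the list, beside 6.42% of all genes. TMPRSS4, a membrane serine protease that can cleave and activate ENaC, held 22.7, 9.89, 19.8 and 5.78 TPM in control and 25.0, 31.9, 42.7 and 24.5 TPM in androstenone. Every androstenone value lay above every control value, the nearest being androstenone 4 and control 1, and the log2 fold change was 1.26 (SE 0.38, edgeR unadjusted p = 0.0103, adjusted p = 0.403). It was the 1 gene of the 15 whose groups did not overlap, beside 5.39% of all genes. TMPRSS4 met the cutoff in all 22 alternative settings, with a log2 fold change of 1.03 to 1.52 when single libraries were left out.

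ST14, which encodes matriptase, another membrane serine protease, held 35.9, 26.2, 67.1 and 18.3 TPM in control and 110, 139, 39.8 and 33.0 TPM in androstenone. Androstenone 1 and 2 were the highest and the other androstenone libraries lay among the controls. Its log2 fold change of 1.28 (SE 0.55, edgeR unadjusted p = 0.0477, adjusted p = 0.439) missed the cutoff when any of 5 libraries was left out, with p up to 0.151 without androstenone 2; the other 4 were control 1, control 2, control 4 and androstenone 1. The most abundant genes of the list were BPIFA1, a secreted airway protein that limits ENaC activity, at 1240 to 6530 TPM, SPINT2, an inhibitor of such proteases, at 131 to 649 TPM, and CAP1, the cyclase-associated actin regulator whose symbol is also an older name of the ENaC-cleaving protease PRSS8, at 169 to 222 TPM. None of these 3 met the cutoff with all libraries, but without control 3 BPIFA1 did, with a log2 fold change of 1.64 (unadjusted p = 0.000825).

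SLC12A2 (NKCC1), on chromosome 2 at 131016430 to 131109307, varied least of the 9 genes, with a coefficient of variation of 32.7% over the libraries. Its TPM was 18.0, 20.7, 20.6 and 10.1 in control and 24.8, 28.4, 15.2 and 12.6 in androstenone. Androstenone 1 and 2 were the highest and control 4 the lowest, and the other 2 androstenone libraries were below 3 of the controls. The log2 fold change was 0.37 (SE 0.30, edgeR unadjusted p = 0.252, adjusted p = 0.635), with an interval from -0.32 to 1.07.

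Among 25 tested genes of chloride and bicarbonate transport, 3 met the unadjusted cutoff, all lower in androstenone, and 0 the adjusted one. That is 12.0% of the list beside 6.42% of all genes, among which 934 fell and 434 rose by this cutoff. The median log2 fold change of the list was -0.45, with 8 above 0 and 17 below. SLC26A9, an epithelial chloride transporter, held 1.72, 0.64, 0.26 and 0.11 TPM in control and 0.05, 0.06, 0.06 and 0.07 TPM in androstenone, with a log2 fold change of -3.10 (SE 0.75, edgeR unadjusted p = 0.00289, adjusted p = 0.393). It rests on 279 reads over all libraries, yet no control value reached down to the androstenone values. Without control 1, the library of few counts, the log2 fold change was -2.29 with edgeR unadjusted p = 0.00344. Of the 25 genes of the list, 4 had groups that did not overlap, beside 5.39% of all genes.

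BEST1, a calcium-activated chloride channel, stood at 0.81 to 1.27 TPM in control and 0.08 to 0.60 TPM in androstenone, with a log2 fold change of -1.63 (edgeR unadjusted p = 0.0311). Its p lay between 0.0515 and 0.0638 without control 2, control 3, control 4 or androstenone 2. SLC4A1, the anion exchanger of red cells and acid-secreting kidney cells, was at most 0.27 TPM, with a log2 fold change of -1.07 (edgeR unadjusted p = 0.0459); it missed the cutoff without control 1, control 2, androstenone 1, androstenone 2 or androstenone 4, with p from 0.0894 to 0.128. CLCA1, a goblet cell protein that modulates chloride currents, led the list in level and ranged from 36.3 to 3160 TPM, with androstenone 1 and 2 at 1540 and 3160 TPM and androstenone 3 and 4 at 38.5 and 36.3 TPM. The log2 fold change of CLCA1 was 2.74 (SE 1.41, edgeR unadjusted p = 0.0864). CLCA1 met the cutoff in 5 of 22 alternative settings, among them DESeq2 and edgeR's other tests, and without androstenone 3 or androstenone 4; with single libraries left out its log2 fold change was 1.61 to 3.56. SLC4A2, an anion exchanger of basolateral membranes, and CLCN3, an endosomal chloride exchanger, came next at 33.8 to 105 and 23.4 to 74.1 TPM, and neither met the cutoff.

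None of the 16 cation-chloride cotransporter and kinase genes tested met the cutoff, which 6.42% of all genes met, or the adjusted p. The most abundant were SLC12A7, a potassium-chloride cotransporter, at 33.5 to 103 TPM, CAB39, a scaffold of the kinases that control these cotransporters, at 36.2 to 68.1 TPM, and CUL3, a ubiquitin ligase scaffold, at 24.7 to 31.6 TPM. The median log2 fold change of the list was 0.07.

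Of 22 sodium pump and potassium channel genes tested, KCNQ1 was higher and KCNN4 lower in androstenone by the unadjusted cutoff, and 0 passed the adjusted p. These calls made up 9.09% of the list, beside 6.42% of all genes. KCNQ1, a potassium channel that helps epithelia to secrete chloride, held 12.6, 13.0, 12.8 and 5.33 TPM in control and 20.4, 29.8, 22.4 and 13.8 TPM in androstenone. All androstenone values lay above all control values, and the log2 fold change was 1.14 (SE 0.30, edgeR unadjusted p = 0.00452, adjusted p = 0.393), falling below 1 without control 4 (0.96) or without androstenone 2 (0.93). KCNQ1 was the 1 gene of the 22 whose groups did not overlap, beside 5.39% of all genes. KCNN4, a calcium-activated potassium channel, held 13.4, 47.8, 3.92 and 6.04 TPM in control and 2.18, 3.94, 5.40 and 3.37 TPM in androstenone. Its log2 fold change of -2.09 (SE 0.73, edgeR unadjusted p = 0.0194, adjusted p = 0.416) rested largely on control 2, without which it was -0.95 with unadjusted p = 0.0765, and the cutoff was missed without androstenone 1 as well. ATP1B1, the beta subunit of the sodium pump, stood at 149 to 432 TPM and FXYD3, a modulator of the pump, at 37.6 to 259 TPM, and neither met the cutoff.

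Of the genes known to regulate or anchor CFTR, 14 were tested and 1 met the unadjusted cutoff, 7.14% beside 6.42% of all genes. That gene was ADORA2B, an adenosine receptor that raises cAMP, at 29.1, 20.1, 28.4 and 8.09 TPM in control and 53.7, 70.3, 32.9 and 26.7 TPM in androstenone. Androstenone 1 to 3 lay above all controls and androstenone 4 did not, and the log2 fold change was 1.27 (SE 0.41, edgeR unadjusted p = 0.0145, adjusted p = 0.416), or 0.98 with unadjusted p = 0.0457 without androstenone 2. The scaffold NHERF1 stood at 119 to 637 TPM, EZR (ezrin), which ties membrane proteins to actin, at 153 to 395 TPM and NHERF2 at 72.8 to 160 TPM; NHERF1 met the cutoff without control 3 (1.26, unadjusted p = 0.0276). Over the 132 tested genes of these lists, 5 were higher and 5 lower by the unadjusted cutoff, 7.58% in all beside 6.42% of all genes, with a median log2 fold change of 0.06 and 0 past the adjusted p. The groups did not overlap in TPM for 6 of the 132, where 5.39% of all genes did not.

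AQP3, on chromosome 10 at 33045374 to 33050285, encodes a water and glycerol channel typical of basal epithelial cells. It was present at 1310, 513, 477 and 127 TPM in control and 530, 358, 1048 and 578 TPM in androstenone. Control 1 was the highest and control 4 the lowest, a 10.3-fold range within the control group that enclosed all 4 androstenone values. The group means were 607 ± 500 and 629 ± 295 TPM (SD, n = 4), with a log2 fold change of 0.23 (SE 0.59, edgeR unadjusted p = 0.704, adjusted p = 0.89). The direction was not stable, being -0.09 without control 4 and -0.13 without androstenone 3.

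AQP4, on chromosome 6 at 111407632 to 111422169, was near the floor of detection. Its rounded counts were 6, 36, 23 and 12 in control and 26, 4, 0 and 11 in androstenone, which is 0.59, 0.21, 0.12 and 0.07 TPM against 0.12, 0.02, 0 and 0.05 TPM. Control 1 was highest in TPM, but on 6 counts in a library of few counts. These gave 1.44 CPM (counts scaled by the library total), with an exact Poisson 95% interval of 0.53 to 3.13, for counting error only. The 0 counts in androstenone 3 allow up to 0.0345 CPM by a floor of 3 counts, or 0.0424 CPM by the same exact interval. The log2 fold change was -1.96 (SE 1.10, edgeR unadjusted p = 0.112, adjusted p = 0.515), and the androstenone 1 value lay among the controls. The call depended on the tool: DESeq2 gave -2.13 (unadjusted p = 0.0466) and limma voom -2.55 (unadjusted p = 0.0441), both meeting the cutoff. Without androstenone 1 the value was -3.01 with unadjusted p = 0.0355 and without control 1 it was -1.35 with unadjusted p = 0.246.

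Other aquaporins differed in which libraries held them. Of 9 tested, AQP6, an intracellular anion-permeable aquaporin, met the unadjusted cutoff, with a log2 fold change of 2.04 (edgeR unadjusted p = 0.0407) at no more than 0.48 TPM and 84 reads in all, and 0 passed the adjusted p; when 1 library was left out, AQP6 kept meeting the cutoff only without control 2 or androstenone 3. AQP1, the water channel of vascular endothelium and red cells, stood at 10.3 to 350 TPM, AQP5, the apical channel of gland and airway cells, at 21.9 to 149 TPM, and AQP11 at 4.40 to 12.7 TPM. AQP3 exceeded AQP5 in all 8 libraries, by 2.41 to 36.1 times, and AQP1 in 7, the exception being control 4 with a ratio of 0.70; both ratios were chosen after the values were seen.

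Over the 8 libraries, FOXI1 and the ENaC subunits ran in parallel, whichever the group. On log2 CPM, Pearson's r of FOXI1 was 0.978 with SCNN1A, 0.955 with SCNN1B and 0.973 with SCNN1G, 0.824 with SLC12A2 and 0.811 with CFTR. It was 0.542 with ATP6V1B1, 0.356 with AQP3 and -0.0897 with AQP4. SCNN1B and SCNN1G had the highest r of any pair among the 9, at 0.987. These are descriptions over 8 libraries of 4 sows, which differ together in tissue makeup and count total. Of the r values with FOXI1, leaving out control 1 moved that of AQP4 most, to -0.202.

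**Figure D4:**
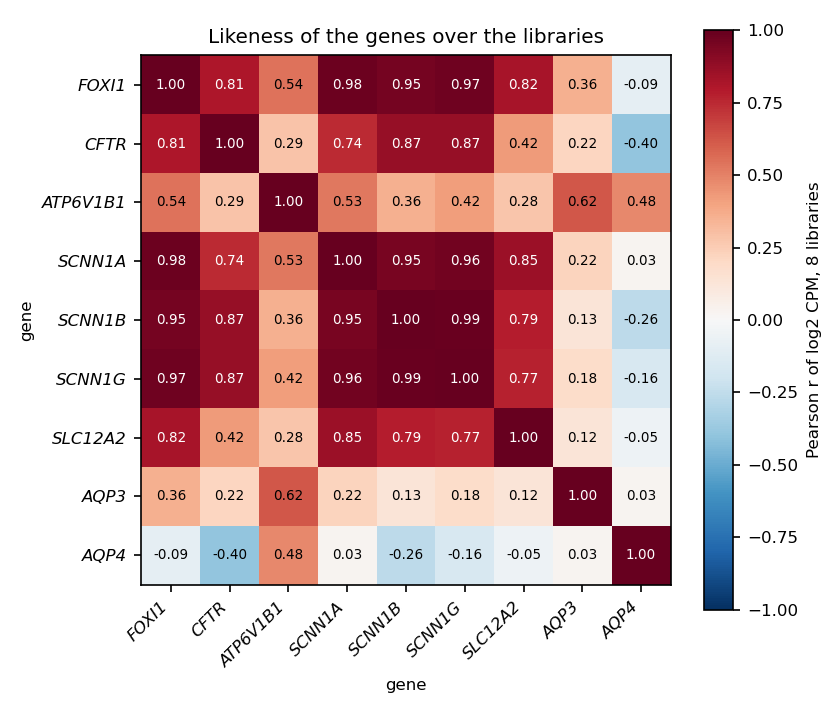
Pearson's r of log2 CPM over the 8 libraries for each pair of the 9 genes, coloured from blue (-1) through white (0) to red (1). FOXI1 and the 3 ENaC subunits form a block of r from 0.949 to 0.987, CFTR and SLC12A2 lie next to it, and ATP6V1B1, AQP3 and AQP4 stand apart.

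Marker sums of several cell types moved with this block, that of ciliated cells among them. The summed TPM of 12 respiratory ciliated cell markers was 1190, 574, 2980 and 489 in control and 2170, 2450, 729 and 653 in androstenone. Control 3, androstenone 1 and androstenone 2 were thus the richest in ciliated cell RNA, and 6 of the 9 genes (all but ATP6V1B1, AQP3 and AQP4) were highest in one of these 3 libraries, as were 36.6% of all genes. Pearson's r with this sum was 0.942 for FOXI1, 0.956 for SCNN1A, 0.919 for SCNN1B, 0.948 for SCNN1G, 0.773 for CFTR and 0.778 for SLC12A2. For ATP6V1B1 it was 0.543, and for AQP3 it was 0.132. Other marker sums were about as close. For goblet cells r was 0.901 with FOXI1, 0.938 with SCNN1A and 0.919 with SLC12A2. For the mature olfactory neuron list it was 0.918, 0.924 and 0.827, and for sustentacular cells 0.837, 0.89 and 0.662. The neuron markers themselves were divided, with r to FOXI1 of 0.937 for STOML3 and 0.928 for CNGA2 but -0.807 for ANO2 and -0.85 for CNGA4. SEC14L3 (0.877) made up most of the sustentacular sum. The r of ERMN, NOTCH2, CYP1A2 and LRRC52 was 0.0679, -0.173, -0.237 and -0.664, so these sums do not stand for their cell types. The endothelial marker sum ran the other way, with r of -0.872 for FOXI1 and -0.912 for SCNN1A. The part of tissue makeup in the values of these genes was not tested.

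The other ionocyte genes were divided in their likeness to FOXI1. Over the 16 tested, r with FOXI1 ran from -0.887 to 0.953 with a median of 0.718, above 0 for 12 genes and below 0 for 4. At the upper end were TFCP2L1, a transcription factor of acid-secreting cells, at 0.953, ATP6V1G3 at 0.899, and BSND, a chloride channel subunit, at 0.89. The 4 below 0 were MOXD1 at -0.887, SLC26A4 at -0.43, P2RY14, a receptor for UDP-sugars, at -0.388 and ATP6V0D2 at -0.184. All of these but ATP6V0D2 were chosen for naming after their values were seen.

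AQP3 followed another pattern. Its r was 0.766 with the summed TPM of 4 basal cell markers, which was 306, 212, 30.5 and 25.6 in control and 67.4, 15.9, 792 and 309 in androstenone. Both AQP3 and these markers were high in control 1 and androstenone 3 and lowest or nearly so in control 4. Its r was 0.865 with the T and B cell markers, of which JCHAIN, the antibody joining chain, made up most of the sum. With the osteoblast and cartilage markers it was -0.766.

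**Figure D5:**
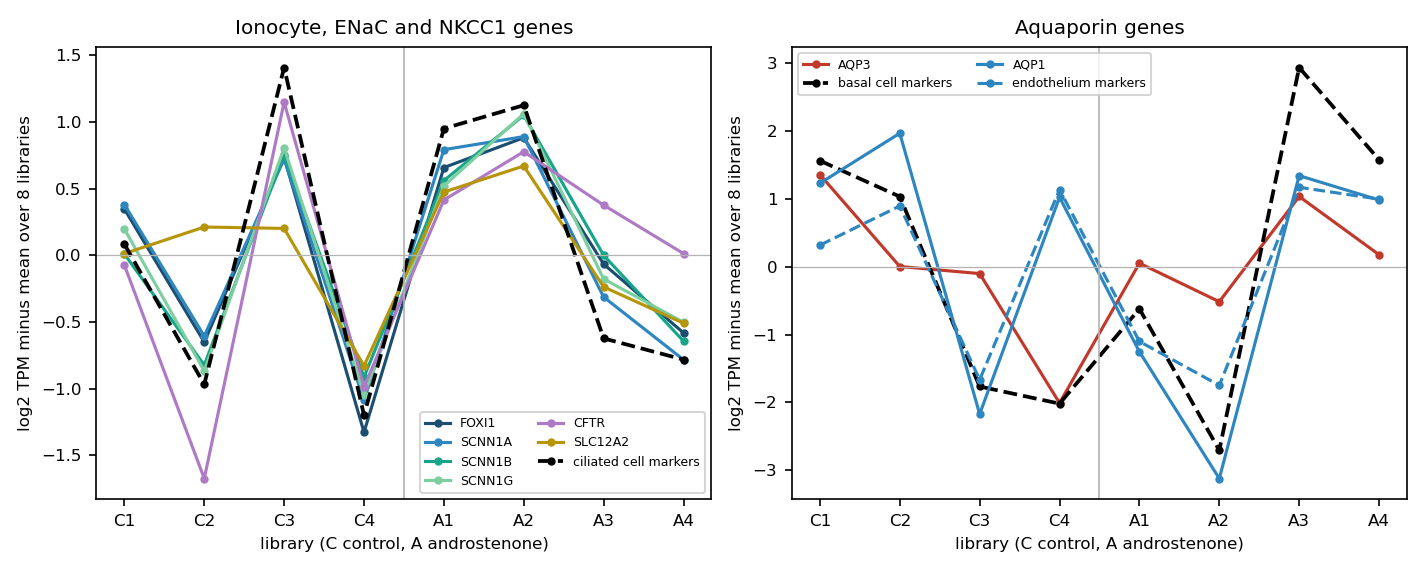
Log2 TPM per library minus its mean over the 8 libraries (C control, A androstenone), for FOXI1, the ENaC subunits, CFTR and SLC12A2 with the ciliated cell marker sum (left, dashed), and for AQP3 and AQP1 with the basal cell and endothelium marker sums (right, dashed). Lines only join the points of a gene, since libraries have no order; on the left, 6 genes peak in control 3 or androstenone 2, and on the right AQP3 peaks in control 1 and AQP1 in control 2.

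Among 15945 genes with a mean of at least 1 CPM, those most like each gene were ranked by Pearson's r of log2 CPM over the 8 libraries. FOXI1 was nearest to AP1M2, a clathrin adaptor subunit of epithelial cells, at 0.999, to NUDT2 at 0.993 and to TNK1 at 0.992, and 757 genes had r of at least 0.9 with it. SCNN1A was nearest to GRHL3, a transcription factor of epithelial barriers, at 0.995, to ACAT1 at 0.993 and to ENSSSCG00000052310 at 0.991. SCNN1B was nearest to TMEM87A (0.994), GEMIN4 (0.992) and H6PD (0.991), and SCNN1G to PNMA1 (0.99), RDH11 (0.988) and MGST2 (0.987). The number of genes with r of at least 0.9 was 958 for SCNN1A, 1182 for SCNN1B and 1157 for SCNN1G, so closeness to these genes was common.

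CFTR was nearest to MARCHF7 (0.986), PNPLA8 (0.983) and NAA25 (0.981), with 319 genes at 0.9 or more. SLC12A2 was nearest to CACYBP (0.979), SAMM50 (0.977) and FKBP4 (0.973), with 177 such genes. AQP3 was nearest to PPL, which encodes the cornified envelope and desmosome protein periplakin, at 0.984, to RGMA at 0.983 and to C1orf116 at 0.978, with 72 such genes. ATP6V1B1 had the fewest, 33, led by EPCIP (0.963), ENSSSCG00000036465 (0.953) and MIEN1 (0.952). AQP4 was below 1 CPM on average and was not ranked.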

How the data were processed

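Total RNA of 8 pig OE libraries was sequenced by the authors, trimmed with fastp 0.23.1 and quantified with kallisto 0.48.0 on Sscrofa11.1, per the labels. The deposited values are estimated counts per gene and TPM, TPM being scaled by transcript length and library total by the authors. After rounding the estimated counts to whole numbers and dropping genes left with none, androstenone was compared with control by edgeR 4.0.16 (R 4.3.3; TMM normalization, quasi-likelihood test, no covariate) over all genes, with Benjamini-Hochberg adjustment. The 95% intervals come from that fit. A gene was called a DEG at an unadjusted p below 0.05 together with a log2 fold change of 1 or more in either direction, the cutoff of the study. Levels are deposited TPM. Log2 CPM for correlations was TMM-scaled with a prior count of 2. The test was also run on simulated libraries drawn independently of each other, so that run cannot speak to libraries that share a sow. DESeq2 1.42.0, limma 3.58.1, other filters and scalings and leaving out libraries were alternatives.

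Since left and right OE of a sow are separate libraries and cannot be matched, the p-values measure the spread between libraries and are too small as tests between sows. The genes and lists were chosen with earlier results of these data known. From each list of related genes, the 3 of highest mean TPM and the called genes (at most 3 in each direction) were named, with ATP6V1B2 beside ATP6V1B1 and the 3 genes most like each member. A gene that this rule picks is not reported here. Gene names came from the Ensembl identifier table, which named 15527 of 22516 genes, and coordinates from the RefSeq annotation of Sscrofa11.1. Paralogous V-ATPase, ENaC and aquaporin transcripts were assigned by kallisto, and no strand setting is given in the sources used here. Intervals on counts cover counting error only.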

Additional observations from a re-analysis of the deposited data

Results flagged for a closer look

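In each of 138 sets of 4 libraries, the highest or lowest value was compared with the rest by Dixon's gap test, which by chance singles out about 1 in 20 sets, and 6 stood apart. Control 4 had 134 TPM of ATP6V0D2, the V-ATPase subunit shared by ionocytes and osteoclasts, where the other controls had 1.36 to 15.4. The osteoclast marker sum in control 4 was 7360 TPM against 265 to 904 in the other controls. The osteoblast and cartilage marker sum in control 4 was 48400 TPM against 1200 to 4120. KCNQ1 was low in control 4, at 5.33 TPM against 12.6 to 13.0 in the other controls. BPIFA1 was high in control 3, at 6530 TPM against 1240 to 1440. FXYD3 was high in androstenone 3, at 211 TPM against 119 to 125 in the other androstenone libraries. None of the 9 fluid transport genes themselves stood apart in this way in either group.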

How the results depend on the processing

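With 0 of the 9 genes called in the reported fit, 1 was called (AQP4) by DESeq2, by limma voom and by limma on log2(TPM + 0.1), and 0 to 2 when single libraries were left out, the 2 being CFTR and SCNN1B without control 3. No setting passed any of the 9 at an adjusted p of 0.05. The 10 called genes of the related lists became 13 by edgeR's likelihood ratio and exact tests, 11 by DESeq2 and 8 by limma voom. They became 6 on log2(TPM + 0.1), 2 on log2(TPM + 1) and 3 without control 1 and control 4 together. That last setting was added after seeing the data. When single libraries were left out they numbered 5 to 23, 23 being without control 3, and the cause was not tested. AQP3 changed direction without control 4 (-0.09) and without androstenone 3 (-0.13), in a range from -0.13 to 0.91 with single libraries left out, the highest without control 1. The replicate numbers were also used as a block. Same-numbered libraries had correlations of -0.035, -0.498, -0.599 and 0.173 of their deviations from the group means over 18347 genes, so the libraries share only a number and are not paired. With the replicate block, 1 of the 9 genes (AQP4, -2.64, unadjusted p = 0.0429) and 5 of the related genes were called, and 583 of all genes. Over all genes, the calls numbered 1368 in the reported fit, 1978 by edgeR's likelihood ratio test, 1594 by its exact test and 1489 by DESeq2. They numbered 978 by limma voom, 718 on log2(TPM + 0.1) and 319 on log2(TPM + 1). With single libraries left out they ran from 867 to 2414, and without control 1 and control 4 they numbered 881. Low counts limit AQP4, AQP6 and SLC4A1, and the chosen floor of 3 counts stands at 0.718 CPM in control 1, the highest of any library.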
